A study of Homo sapiens with 30 samples.

Results

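10 genes that p53 switches on were followed across the lines of this series: CDKN1A, MDM2, BBC3, BAX, SESN1, ZMAT3, RRM2B, FDXR, TP53I3 and PHLDA3. They were chosen by name, by gene symbol, and all 10 stood among the 16975 genes of the deposited table. 9 of them had enough reads to be tested, and TP53I3 did not.

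The assay was 3' RNA-seq, in which each read comes from near the 3' end of a transcript, on 30 libraries in 10 groups of 3. HEK28, derived from human embryonic kidney (HEK293) cells, secretes coagulation factor VIII, the product of F8, and the parental group is the HEK line it comes from. The other 8 groups were HEK28 lines in each of which CRISPR was aimed at 1 gene: CANX or CALR (calnexin and calreticulin, chaperones of the endoplasmic reticulum), LMAN1 or MCFD2 (the receptor complex that carries factor VIII out of it), GABARAP, GABARAPL1 or GABARAPL2 (ubiquitin-like proteins of autophagosomes) or ATG7 (the enzyme that activates them). These 8 groups therefore share the F8-secreting background of HEK28 with each other and with HEK28. All cultures were untreated. Each line is named below by the gene aimed at. The sample titles give 1 number to each knockout, and nothing states whether it marks 1 clone, or whether the 3 samples of a group were separate cultures, so the p-values rest on sample-to-sample spread that could be purely technical.

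p53 is a transcription factor that cells stabilise under stress. Its targets arrest the cell cycle (CDKN1A, which encodes the inhibitor p21), start cell death (BBC3, which encodes PUMA, and BAX), serve repair and metabolism (SESN1, ZMAT3, RRM2B, FDXR, TP53I3) and hold p53 and growth signals in check (MDM2, the ligase that degrades p53, and PHLDA3, an inhibitor of AKT). HEK293 cells carry adenovirus genes whose products bind p53 and blunt its activity, and they make p53 protein in abundance.

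The p53 site was looked for in front of the members, because several of them were called in the same lines. RefSeq promoter windows (GRCh38.p14, from 250 bases before to 50 after a transcript start) were used for 8 of the 10 members, 15 windows in all. No window of RRM2B or PHLDA3 was searched, so whether either has the site was not tested. The search was for the p53 consensus, 20 bases made of a decamer and its repeat side by side, each with the core CNNG, with at most 3 mismatches. The consensus reads alike on both strands. It was present in 1.12% of the 35116 windows of all genes and in 4 of the 15 member windows. By gene, 1.37% of 27305 symbols had it, and 3 of the 8 members, MDM2, SESN1 and FDXR. The members were chosen as p53 targets, so these shares are a description. The MDM2 windows chr12:68808767-68809066 and chr12:68808774-68809073 overlap and hold the same site, so it counts more than once by window. Only the first is shown. The windows of MDM2, SESN1 and FDXR are shown in the direction of transcription with the site in capitals.
MDM2, chr12:68808767-68809066, plus strand, an internal start of the gene: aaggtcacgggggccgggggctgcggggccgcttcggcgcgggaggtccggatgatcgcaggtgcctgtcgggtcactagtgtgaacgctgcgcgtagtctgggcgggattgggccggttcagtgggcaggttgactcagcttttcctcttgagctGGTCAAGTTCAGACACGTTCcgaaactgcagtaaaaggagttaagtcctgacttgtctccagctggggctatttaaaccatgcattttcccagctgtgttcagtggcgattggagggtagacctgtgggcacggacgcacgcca
SESN1, chr6:109008939-109009238, minus strand, an internal start of the gene: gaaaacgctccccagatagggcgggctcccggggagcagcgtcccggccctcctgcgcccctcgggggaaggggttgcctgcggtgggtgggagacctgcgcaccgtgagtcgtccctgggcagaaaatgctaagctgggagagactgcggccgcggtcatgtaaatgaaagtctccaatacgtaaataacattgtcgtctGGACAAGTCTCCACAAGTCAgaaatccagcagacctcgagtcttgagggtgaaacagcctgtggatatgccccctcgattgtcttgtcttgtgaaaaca
FDXR, chr17:74872945-74873244, minus strand: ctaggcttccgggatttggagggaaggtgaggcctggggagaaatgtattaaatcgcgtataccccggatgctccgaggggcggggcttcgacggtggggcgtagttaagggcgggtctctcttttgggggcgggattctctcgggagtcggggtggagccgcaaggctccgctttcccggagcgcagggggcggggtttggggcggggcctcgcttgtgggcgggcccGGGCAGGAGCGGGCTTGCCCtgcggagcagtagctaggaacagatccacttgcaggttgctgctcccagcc
The MDM2 site has 2 mismatches and begins at position -94 from the start, the SESN1 site has 3 and begins at -49, and the FDXR site has 3 and begins at -21. A match is a description of the letters. The single window of CDKN1A had no match, and the windows of BBC3, BAX, ZMAT3 and TP53I3 had none either, which says only that these letters are not in those windows.

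Reads per library, recovered from the steps of the deposited log2 values, ran from 155184 to 4034113 with a median of 629360. A level below is the deposited log2 value, so 1 unit is a 2-fold difference. The table divides each gene by a factor of its own, and that factor was unrelated to annotated exon length (Spearman rho 0.009 across 16882 genes, a description), so levels are compared between libraries for 1 gene and never between genes. Of the 8 targeted genes 4 (CANX, CALR, LMAN1, MCFD2) were lower in their own line than in the other 7 lines, by 1.15 to 3.34 on the log2 scale. GABARAP, GABARAPL1, GABARAPL2 and ATG7 overlapped with the other lines and did not pass, and a 3' read need not report an edit upstream of it. All 10 HEK293 markers on the list that was used were in the table, at a summed 3350 to 7800 RPM (reads scaled to library size). The sum hides single markers. Of the 8 tested, 3 were higher and 2 lower in the knockout lines than in the parental line (limma, adjusted p < 0.05). Of all tested genes 24.3% were higher there and 13.3% lower. INA, 1 of the 2 lower, had a log2 difference of -4.44. Of 21 markers of fibroblasts, leukocytes, hepatocytes, epithelium and endothelium 7 were in the table, and no list exceeded 48.3 RPM in a library. HEK28 replicates 1 and 2 stand apart from replicate 3, with a chi-square per degree of freedom of 6.54 and 10.38 against 1.83 between them. Which of these libraries is typical of HEK28 was not tested. Calls against HEK28 are also given with replicate 3 alone. The opposite choice was to leave out replicate 3. Of the calls of a line against HEK28, or of HEK28 against the parental line, 28 then stayed and 1 was lost. LMAN1 replicate 2 stands apart from the other LMAN1 libraries (5.54 and 7.53 against 2.03), so the LMAN1 calls are also given without it. In such bulk RNA, fewer cells of a kind and less RNA per cell cannot be told apart.

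The line in which calreticulin was targeted had the highest mean for more members than any other knockout line, and the ATG7 line the lowest. Among the 8 knockout lines, the CALR line had the highest mean for 6 of the 10 members, the MCFD2 line for 3 (BBC3, TP53I3, PHLDA3) and the LMAN1 line for 1 (BAX). The ATG7 line had the lowest mean for 5 and the GABARAP line for 2. These counts include the untested TP53I3 and near ties, such as FDXR at 2.64 in the CALR line and 2.56 in the MCFD2 line. The share of all genes for which these lines were highest or lowest is not given here, so the counts are a description. A moderated F test over the 8 lines (limma) found a difference for 7 of the 9 tested members (adjusted p < 0.05). Of all 11191 tested genes, 13.4% passed that test. The smallest adjusted p belonged to MDM2 (3.84e-07) and CDKN1A (7.84e-06). BBC3 (adjusted p = 0.0829) and BAX (0.599) did not pass.

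**Figure D1:**
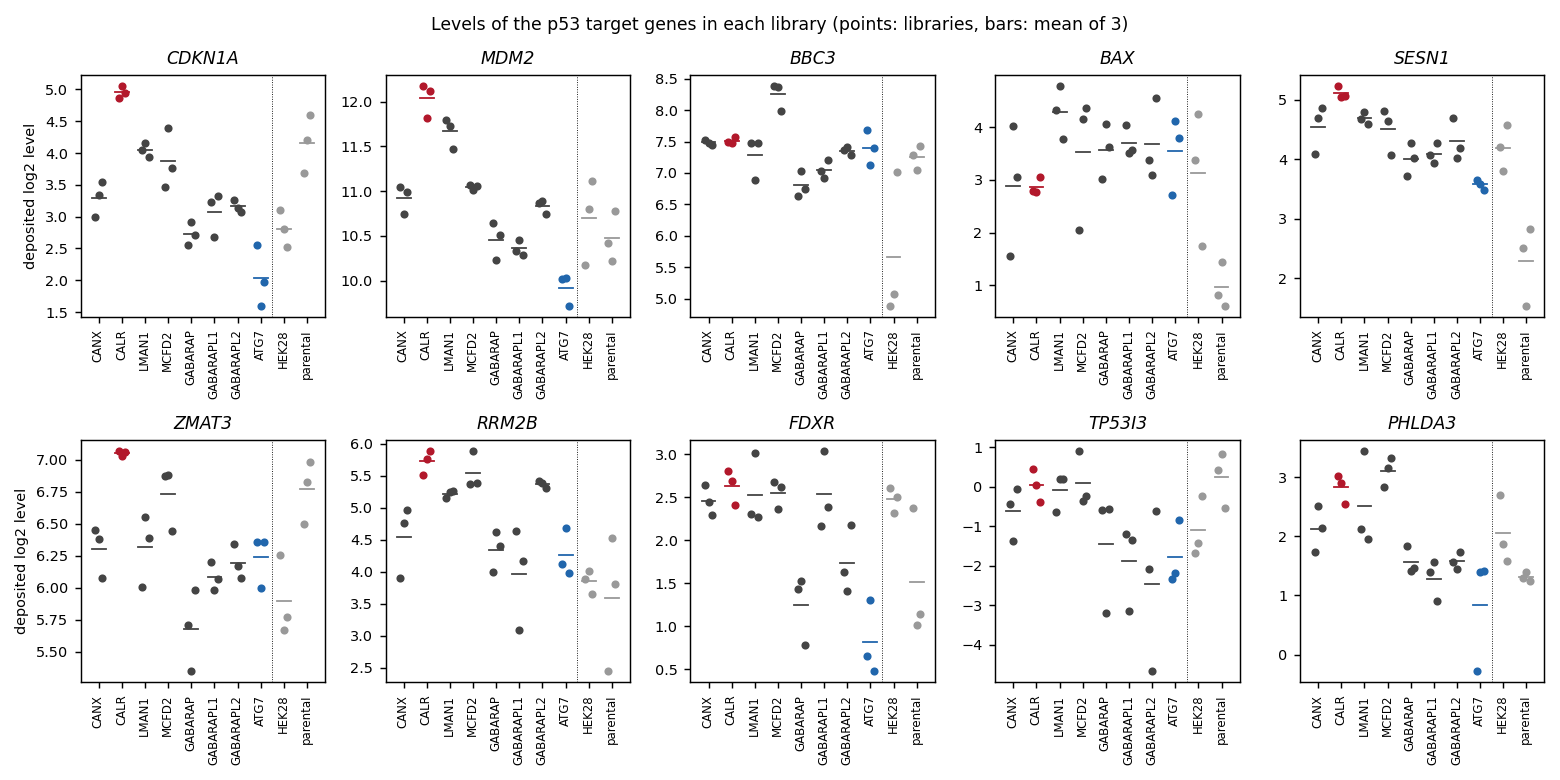
Deposited log2 levels (y axis, 1 panel per gene) of the 10 p53 target genes in the 8 knockout lines, HEK28 and the parental line (x axis). Points are libraries, bars are means of 3; the CALR line is red and the ATG7 line blue, and a reader should see CDKN1A at 4.87 to 5.06 in the CALR line and at 1.60 to 2.55 in the ATG7 line.

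CDKN1A (ENSG00000124762, chromosome 6, 36676460 to 36687339, plus strand, GRCh38) encodes p21, which stops cyclin-dependent kinases. Its levels in the CALR line were 4.87, 5.06 and 4.95, against a lowest of 1.60, a median of 3.23 and a highest of 4.39 in the 21 libraries of the other 7 lines. In the ATG7 line they were 2.55, 1.60 and 1.98. The CALR libraries thus stood above every library of the other 7 knockout lines. The ATG7 libraries stood below every one, though only just, with 2.55 (14 reads) next to 2.56 in GABARAP replicate 1. HEK28 replicate 3, at 2.52, was within the ATG7 range. Against HEK28 the difference of CDKN1A in the ATG7 line was -0.77 and did not pass.

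The CALR line exceeded the mean of the other 7 lines by 1.78 ± 0.22 in CDKN1A (log2, SE), a 3.45-fold difference (limma, adjusted p = 2.74e-05). The ATG7 line fell below it by 1.55 ± 0.22, or 2.92-fold (adjusted p = 0.000292). Between them lay the LMAN1 line (4.04, 4.15 and 3.93), the MCFD2 line (3.47, 4.39 and 3.77) and the CANX line (2.99, 3.34 and 3.54), followed by the 3 GABARAP family lines, whose 9 libraries ran from 2.56 to 3.33. Of the 9 pairs of neighbours in the order of the 10 groups, only 2 did not overlap, CALR above the parental line and GABARAP above ATG7. The parental line, at 3.68, 4.21 and 4.59, was second to the CALR line, while HEK28 was eighth, at 3.11, 2.81 and 2.52.

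MDM2 (ENSG00000135679, chromosome 12, 68808176 to 68850686, plus strand) is both a target and the main inhibitor of p53. Its levels were 12.18, 11.82 and 12.12 in the CALR line and 11.80, 11.73 and 11.47 in the LMAN1 line. They were 10.02, 10.03 and 9.72 in the ATG7 line. The CALR libraries were above the 21 others, which reached 11.80, and the ATG7 libraries were below the other 21, the lowest of which was 10.23.

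Against the other 7 lines MDM2 was 2.45-fold higher in the CALR line (log2 1.29 ± 0.13, adjusted p = 3.50e-06) and 1.83-fold higher in the LMAN1 line (0.87 ± 0.13, adjusted p = 0.00187; 0.84, adjusted p = 0.0292, without LMAN1 replicate 2). It was 2.18-fold lower in the ATG7 line (-1.12 ± 0.13, adjusted p = 4.41e-05). Smaller falls passed in the GABARAPL1 line (-0.62 ± 0.13, adjusted p = 0.0352) and the GABARAP line (-0.51 ± 0.13, adjusted p = 0.0364), both of which overlapped the other lines. Both smaller calls were lost without any 1 of their own 3 replicates, with adjusted p of 0.176 to 0.241 for GABARAPL1 and 0.0639 to 0.307 for GABARAP, and the GABARAPL1 call also in the fit with a replicate block (adjusted p = 0.0585). MDM2 shares its locus with CPM on the other strand, and CDKN1A with the non-coding DINOL. Whether the counting used strand is not given in the sources used here, so reads of such partners cannot be told apart.

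SESN1 (ENSG00000080546, chromosome 6, 108986437 to 109094819, minus strand) encodes sestrin 1, which restrains the growth regulator mTORC1. It stood at 5.24, 5.04 and 5.07 in the CALR line and at 3.66, 3.59 and 3.49 in the ATG7 line. Neither set overlapped its 21 counterparts, which had a median of 4.19 and a highest of 4.87 beside the CALR line, and a median of 4.60 and a lowest of 3.72 beside the ATG7 line. The differences were 0.87 ± 0.22 (adjusted p = 0.0330) and -0.89 ± 0.22 (adjusted p = 0.0450). Without any 1 of the line's own 3 replicates the first missed the threshold (adjusted p 0.136 to 0.236) and so did the second (0.109 to 0.192), and with a replicate block the second was at 0.0515.

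ZMAT3 (ENSG00000172667, chromosome 3, 179017223 to 179072279, minus strand) encodes an RNA-binding protein that p53 uses to change splicing. Its levels in the CALR line, 7.07, 7.03 and 7.06, were all above the other 21 libraries (median 6.20, highest 6.88), a difference of 0.83 ± 0.16 (adjusted p = 0.00315). In the GABARAP line it stood at 5.71, 5.35 and 5.98 and was lower by 0.74 ± 0.16 on the log2 scale (adjusted p = 0.0106). That fall missed the threshold without GABARAP replicate 1 (adjusted p = 0.0557) and without replicate 2 (0.175). The ATG7 line, lowest for CDKN1A and MDM2, was at 6.36, 6.00 and 6.36 for ZMAT3, within the other lines (difference -0.10 ± 0.16, adjusted p = 0.870).

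PHLDA3 (ENSG00000174307, chromosome 1, 201464383 to 201469237, minus strand) was highest in the MCFD2 line, at 2.84, 3.16 and 3.33 against a median of 1.73 in the other 21 libraries, whose highest was 3.45. The difference was 1.29 ± 0.31 (adjusted p = 0.0143), and missed the threshold without MCFD2 replicate 2 (0.0658) or 3 (0.114). In the ATG7 line PHLDA3 was at -0.28, 1.40 and 1.42, from 2, 35 and 14 reads. The fall there (-1.30 ± 0.31, adjusted p = 0.0315) rested on replicate 1. Without it the difference was -0.74 (adjusted p = 0.504), and with precision weights on the reads (voom) it was -0.96 (adjusted p = 0.172).

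FDXR (ENSG00000161513, chromosome 17, 74862497 to 74873031, minus strand), a mitochondrial reductase, was lowest in the ATG7 line, at 0.66, 1.31 and 0.48 (3, 24 and 5 reads), and next lowest in the GABARAP line, at 1.43, 1.53 and 0.78. The ATG7 difference of -1.43 ± 0.26 passed (adjusted p = 0.00419) and the GABARAP difference of -0.93 ± 0.26 did not (adjusted p = 0.0541). The ATG7 call was lost without its replicate 1 (0.0531) or 3 (0.0620) and with voom (0.0789). The CALR, MCFD2, GABARAPL1, LMAN1 and CANX lines had means of 2.46 to 2.64, next to the GABARAPL2 line at 1.74.

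RRM2B (ENSG00000048392, chromosome 8, 102204502 to 102239118, minus strand) encodes the small ribonucleotide reductase subunit that supplies nucleotides for repair. No single line passed against the other 7, although the F test over the 8 lines did (adjusted p = 0.0109). The CALR line (5.52, 5.77 and 5.89), the MCFD2 line (5.37, 5.89 and 5.39), the GABARAPL2 line (5.42, 5.39 and 5.31) and the LMAN1 line (5.15, 5.25 and 5.26) formed an upper group. The CANX, GABARAP, GABARAPL1 and ATG7 lines ran from 3.09 to 4.96 and did not reach it. The largest differences from the other lines were -1.04 ± 0.30 in the GABARAPL1 line (adjusted p = 0.192) and 0.97 ± 0.30 in the CALR line (adjusted p = 0.0796).

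Of the 2 cell death targets, BBC3 was highest in the MCFD2 line and BAX passed in no line. BBC3 (ENSG00000105327, chromosome 19, 47220822 to 47232766, minus strand) stood at 8.39, 8.37 and 7.99 in the MCFD2 line, above all 21 other knockout libraries, which reached 7.68. That line was 1.98-fold higher (0.98 ± 0.25, adjusted p = 0.0209), although the call missed the threshold without any 1 of its 3 replicates (adjusted p 0.0519 to 0.134). In the CALR line BBC3 was at 7.49, 7.47 and 7.57, a difference from the others of 0.13 ± 0.25 (adjusted p = 0.885), and in the ATG7 line of 0.01 ± 0.25 (adjusted p = 0.997).

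BAX (ENSG00000087088, chromosome 19, 48954815 to 48961798, plus strand), a pore-forming protein of the mitochondrial outer membrane, had 505 reads in the whole series and 1 to 58 in a knockout library. Its mean was highest in the LMAN1 line (4.33, 4.79 and 3.77) and lowest in the CANX line (1.55, 4.02 and 3.06). No line passed against the others, with differences from -0.73 ± 0.48 (CALR line, adjusted p = 0.541) to 0.90 ± 0.48 (LMAN1 line, adjusted p = 0.472). With that error only large changes of BAX were detectable.

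TP53I3 (ENSG00000115129, chromosome 2, 24077433 to 24085861, minus strand), an oxidoreductase linked to oxidative stress, had 181 reads in 30 libraries and was left out of the tests. Its means among the knockout lines were 0.10 in the MCFD2 line, 0.03 in the CALR line, -0.07 in the LMAN1 line and -0.62 in the CANX line, and -1.44 to -2.45 in the GABARAP, ATG7, GABARAPL1 and GABARAPL2 lines. Each of these last 4 lines had 1 library with 0 reads, where the value is set by depth and an offset of 0.5 reads.

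Counted over the tested members against the other 7 lines, 4 of 9 rose in the CALR line (CDKN1A, MDM2, SESN1, ZMAT3), where 1.48% of all tested genes rose and as many, 1.48%, fell. In the LMAN1 line 1 rose (MDM2; 0.626% of all genes), and in the MCFD2 line 2 rose (BBC3 and PHLDA3; 1.65% of all genes rose and 3.44% fell). In the ATG7 line 5 of 9 fell (CDKN1A, MDM2, SESN1, FDXR, PHLDA3), against 1.15% of all genes. In the GABARAP line 2 fell (MDM2 and ZMAT3; 1.95% of all genes) and in the GABARAPL1 line 1 (MDM2; 0.223%).

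No member passed in the CANX line, where 0.545% of genes rose and 0.929% fell, or in the GABARAPL2 line, where 2.62% rose and 1.56% fell. By limma 0 members had an unadjusted p under 0.05 in either line, and voom called 0 in the CANX line and 1 in the GABARAPL2 line. The median difference of the 9 members was 0.87 in the CALR line and -0.89 in the ATG7 line, where the median of all genes was 0.01 and 0.00. It was 0.55 in the MCFD2 line, 0.53 in the LMAN1 line and -0.60 in the GABARAP line. These contrasts share libraries, since each line is part of the reference of the other 7.

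Of these 15 calls, 6 passed in all of 10 alternatives, which included leaving out each replicate of the line itself. They were CDKN1A, MDM2 and ZMAT3 in the CALR line, MDM2 in the LMAN1 line, and CDKN1A and MDM2 in the ATG7 line. Leaving out replicates of the other lines or of HEK28 was not among the 10. Precision weights (voom) gave 25 calls in place of 15, 16 higher and 9 lower. They were 7 in the CALR line (4 by limma), 6 in the MCFD2 line (2) and 5 in the GABARAP line (2). The ATG7 line had 3 (5 by limma), the LMAN1 line 2 (1), the GABARAPL1 line 1 (1) and the GABARAPL2 line 1 (0). The ranking of the lines by calls thus depended on the method. The share of all genes that voom called is not given here.

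**Figure D2:**
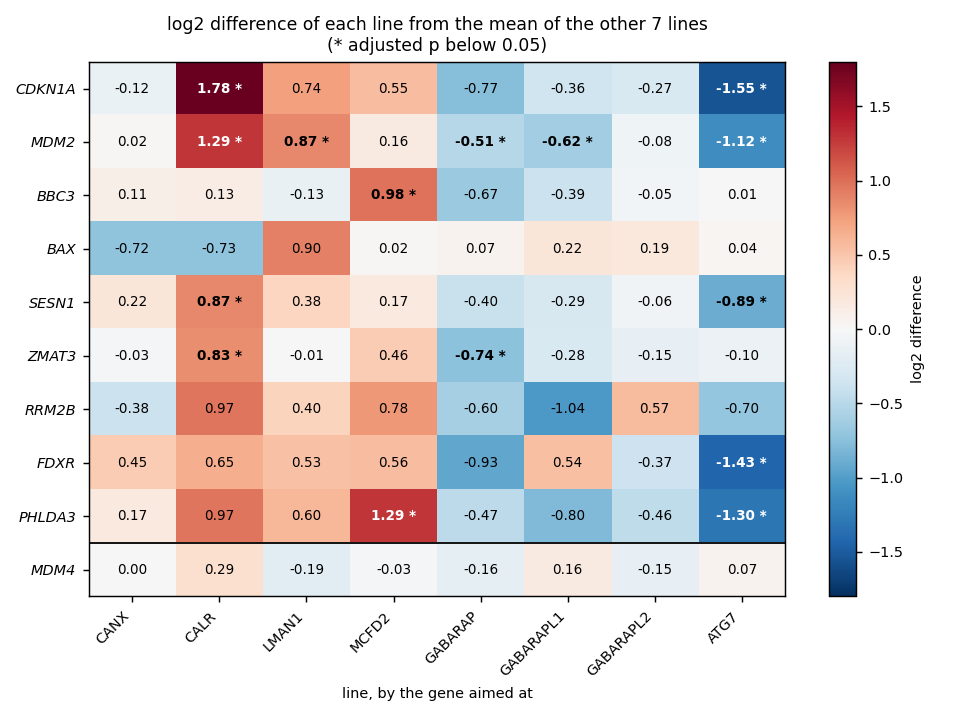
Difference of each line (columns) from the mean of the other 7 knockout lines for the 9 tested members and, under the line, MDM4 (rows). Colour and printed number are the log2 difference, and an asterisk marks an adjusted p below 0.05; the CALR column holds 4 asterisks, all higher, and the ATG7 column 5, all lower.

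MDM4, the partner of MDM2 that also inhibits p53, had means of 5.80 to 6.21 in all 10 groups, and no line passed against the other 7 (differences of -0.19 to 0.29). The tested members' line means spanned 1.37 (ZMAT3) to 2.91 (CDKN1A) on the log2 scale. Over the 8 line means, Pearson's r with the mean scaled profile of the 9 tested members was 0.164 for MDM4, as a description over 8 points.

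Within the members, r with the same profile, of which each is a part, was 0.945 for CDKN1A, 0.938 for PHLDA3, 0.915 for MDM2, 0.914 for SESN1, 0.871 for RRM2B, 0.823 for ZMAT3, 0.795 for FDXR, 0.625 for BBC3 and -0.105 for BAX. Outside all lists used, the 5 of 11079 ranked genes with the highest r were NHLH2 and ISYNA1 (both 0.965), INPP5D and OSBPL5 (both 0.959) and NDUFAF6 (0.956). INPP5D, a lipid phosphatase best known from blood cells, differed from the other lines by 2.96 in the CALR line (adjusted p = 0.000897) and by -3.53 in the ATG7 line (adjusted p = 0.000309). NHLH2, a neuronal transcription factor, rose by 0.96 in the CALR line (adjusted p = 0.0162) and stood at -0.62 in the ATG7 line (adjusted p = 0.173).

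Tested genes on either side of the members had medians near 0 in both lines. Within 5 Mb, 79 tested neighbours of CDKN1A had a median difference of 0.21 in the CALR line and 0.09 in the ATG7 line, beside 1.78 and -1.55 for CDKN1A itself. The 30 neighbours of MDM2 had -0.22 and -0.05, beside 1.29 and -1.12. Over the 9 tested members the neighbours' median ran from -0.29 to 0.21 in the CALR line, lowest around BBC3 and BAX, where 12 neighbours were called lower and 0 higher, and from -0.08 to 0.15 in the ATG7 line. In the LMAN1 line the neighbours of MDM2 stood at 0.33, beside 0.87 for MDM2.

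**Figure D3:**
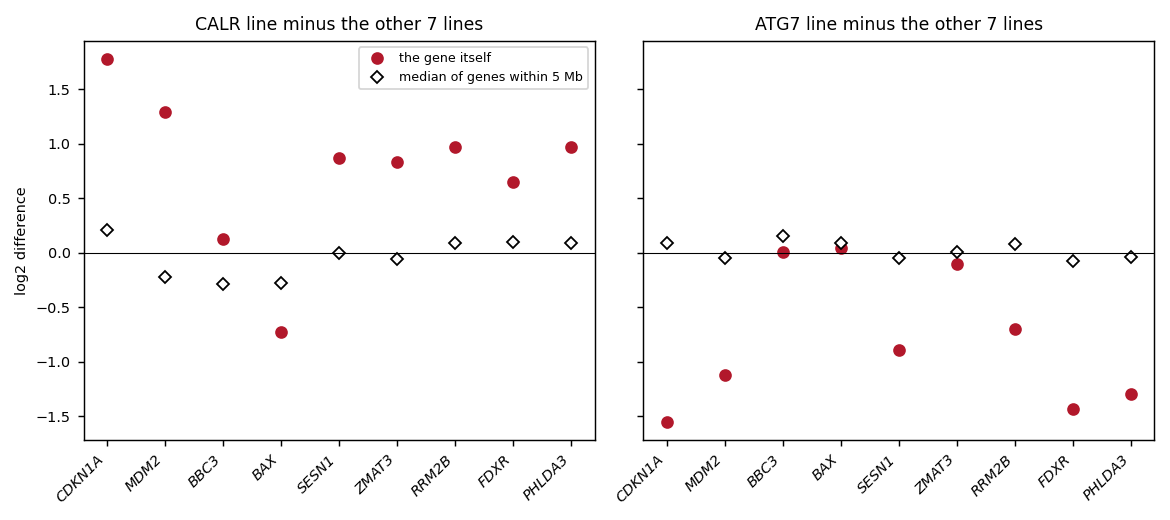
Log2 difference (y axis) of each tested member (red circles) and the median of the tested genes within 5 Mb of it (open diamonds) in the CALR line (left) and the ATG7 line (right), each against the other 7 knockout lines. The diamonds stay between -0.29 and 0.21, while CDKN1A is at 1.78 on the left and at -1.55 on the right.

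A wider list of 52 further p53 targets, none of them a member, was read beside the members, and 41 of them were tested. Against the other 7 lines 5 rose and 0 fell in the CALR line (median 0.49), 2 rose and 0 fell in the LMAN1 line (median 0.29), and 3 rose and 2 fell in the MCFD2 line (median 0.34). In the ATG7 line 0 rose and 5 fell (median -0.37), and in the GABARAP line 0 rose and 7 fell (median -0.41). Of all tested genes 1.48% rose in the CALR line, 0.626% in the LMAN1 line and 1.65% in the MCFD2 line, while 3.44% fell in the MCFD2 line, 1.15% in the ATG7 line and 1.95% in the GABARAP line. Voom called 20 higher in the CALR line, 4 higher in the LMAN1 line, 11 higher and 3 lower in the MCFD2 line, 3 lower in the ATG7 line and 10 lower in the GABARAP line. With HEK28 replicates 1 and 2 left out of the model, 8 rose in the CALR line, 5 rose and 3 fell in the MCFD2 line, 9 fell in the ATG7 line and 10 in the GABARAP line. The percentages above are from the limma fit with all libraries. Shares of all genes for voom, or without those HEK28 libraries, are not given here, so their counts cannot be set against the percentages. By limma with all libraries, the F test over the lines passed for 16 of the 41, and for 13.4% of all tested genes. The list was assembled with earlier results of these data known.

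In the CALR line the smallest adjusted p of this list belonged to GDF15, CYFIP2 and EDA2R. GDF15, a secreted stress cytokine, had a mean of 2.07 ± 0.25 (SD, n = 3) against -0.85 over the other lines, a difference of 2.92 ± 0.45 (adjusted p = 0.000403). CYFIP2, a regulator of actin, was higher by 0.81 ± 0.17 (adjusted p = 0.00895), and EDA2R, a receptor of the tumour necrosis factor family, by 0.77 ± 0.18 (adjusted p = 0.0181). These counts cover target genes with different jobs, and GDF15 and EDA2R act outside the cell or at its surface.

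CYFIP2 was also called in the other direction. It was lower in the GABARAP line by 1.42 ± 0.17 on the log2 scale (adjusted p = 3.27e-05) and in the ATG7 line by 0.74 ± 0.17 (adjusted p = 0.0235), and higher in the MCFD2 line by 1.12 ± 0.17 (adjusted p = 0.000367). PMAIP1, which encodes the death protein NOXA, had its lowest mean of the knockout lines in the GABARAP line, 5.54 ± 0.30 against 7.10 in the other lines (-1.56 ± 0.17, adjusted p = 1.05e-05), followed there by DDB2, a DNA repair factor (-0.97 ± 0.19, adjusted p = 0.00567). In the ATG7 line EDA2R (-1.32 ± 0.18, adjusted p = 0.00018) and TRIAP1, an apoptosis inhibitor (-0.86 ± 0.13, adjusted p = 0.000493), fell. In the MCFD2 line TRIAP1 rose by 0.61 ± 0.13 (adjusted p = 0.00555), while ATF3, a stress transcription factor, fell by 1.07 ± 0.23 on the log2 scale (adjusted p = 0.00734). In the LMAN1 line the 2 that rose were RPS27L (1.05 ± 0.20, adjusted p = 0.00865), whose reads may be shared with RPS27 and its copies, and APAF1, the core of the apoptosome (1.11 ± 0.27, adjusted p = 0.0470, and 0.0552 with a replicate block). Without LMAN1 replicate 2 neither passed (0.84, adjusted p = 0.183, and 0.88, adjusted p = 0.415).

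Of 16 genes that act on p53 (kinases, acetylases, MDM2 partners and ribosomal proteins), 13 were tested and 0 passed the F test over the lines. Of all tested genes 13.4% passed that test. At an unadjusted p under 0.05 limma found 1, and voom called 3. HIPK2, a kinase that phosphorylates p53, was the only one limma called against the other 7 lines, in the MCFD2 line (0.96 ± 0.25, adjusted p = 0.0263). Of all tested genes 1.65% rose there. Voom called 1 in that line and 4 in the GABARAPL2 line, 3 higher and 1 lower. Shares of all genes for voom are not given here.

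A further list held 25 cell cycle genes that p21 lowers through the DREAM complex, of which 24 were tested. In the CALR line 0 rose and 3 fell against the other lines: AURKA (-0.64 ± 0.13, adjusted p = 0.0082), MYBL2 (-0.69 ± 0.15, adjusted p = 0.00932) and E2F1 (-0.75 ± 0.19, adjusted p = 0.0311). AURKA is a mitotic kinase, and MYBL2 and E2F1 are transcription factors of the cycle. In the MCFD2 line 0 rose and 5 fell, among them CCNA2 (-1.23 ± 0.23, adjusted p = 0.00258), BUB1 (-1.19 ± 0.23, adjusted p = 0.00296) and PLK1 (-0.60 ± 0.13, adjusted p = 0.00774). In the ATG7 line, lowest for CDKN1A, 1 rose (CENPF, 0.51 ± 0.11, adjusted p = 0.0145) and 1 fell (AURKB, -0.63 ± 0.13, adjusted p = 0.00808). In the GABARAPL2 line, where CDKN1A stood at -0.27 (adjusted p = 0.544), 0 rose and 2 fell, CENPF (-0.40 ± 0.11, adjusted p = 0.0357) and MCM3 (-0.56 ± 0.15, adjusted p = 0.0404), and voom called 3 higher and 4 lower. Voom called 8 lower in the CALR line and 6 lower in the MCFD2 line, and without HEK28 replicates 1 and 2 limma called 6 lower in each. In the LMAN1 and GABARAP lines 0 passed by limma in either direction, 7 and 5 had an unadjusted p under 0.05, and voom called 3 and 0. The median difference of the list was -0.28 in the CALR line, -0.33 in the MCFD2 line, 0.26 in the LMAN1 line and 0.05 in the ATG7 line. Of all tested genes, 1.48% fell in the CALR line, 3.44% in the MCFD2 line, 1.15% in the ATG7 line and 1.56% in the GABARAPL2 line. These shares are from limma with all libraries. Those of the other fits, and the share that rose in the ATG7 line, are not given here.

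Set against HEK28, 23 of 72 member tests passed over the 8 lines, 20 higher and 3 lower. Many of these calls did not pass with HEK28 replicate 3 alone. In the CALR line 6 of 9 rose (12.1% of all tested genes rose), in the LMAN1 line 4 (4.55%), in the MCFD2 line 4 (10.7%) and in the GABARAPL2 line 2 (18.7%). In the CANX line 1 rose (12.6%), in the GABARAPL1 line 1 (7.23%), in the GABARAP line 1 (4.08%) with 1 lower (1.67%), and in the ATG7 line 1 (8.46%) with 2 lower (4.34%). In the CANX, GABARAPL1, GABARAP and ATG7 lines the single rise was BBC3.

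Of the 23 calls 8 were BBC3, 1 in each line. Its HEK28 levels were 4.89, 5.08 and 7.02, from 7, 21 and 60 reads, so replicates 1 and 2 were low and replicate 3 was within the range of the knockout libraries, 6.63 to 8.39. With replicate 3 alone as HEK28, the differences in BBC3 were 1.24 in the MCFD2 line (adjusted p = 0.00469) and -0.21 to 0.49 in the other 7, none of which passed (adjusted p 0.296 to 0.975).

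Of all 23 calls 8 passed with replicate 3 alone, a fit that assumes that 1 library to vary like the other groups. In the CALR line these were CDKN1A (2.44, against 2.15 with 3 libraries), MDM2 (0.93 against 1.34), ZMAT3 (1.28 against 1.16) and RRM2B (2.06 against 1.87). In the MCFD2 line they were BBC3, CDKN1A (1.36 against 1.06) and ZMAT3 (0.96 against 0.83), and in the ATG7 line MDM2 (-1.18 against -0.77). The MCFD2 call of CDKN1A was lost without MCFD2 replicate 2 (0.80, adjusted p = 0.0795). Without LMAN1 replicate 2, and with 3 HEK28 libraries, the LMAN1 calls of BBC3 (1.82), CDKN1A (1.17) and MDM2 (0.94) passed and that of RRM2B did not (1.35, adjusted p = 0.0606).

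Beside BBC3, the calls that did not pass with replicate 3 alone included SESN1 in the CALR line (0.55, against 0.92, adjusted p = 0.0323, with 3 libraries). The others were MDM2, CDKN1A and RRM2B in the LMAN1 line, RRM2B in the MCFD2 and GABARAPL2 lines, and FDXR in the GABARAP and ATG7 lines. For CDKN1A, RRM2B and FDXR the difference itself was no smaller with replicate 3 alone. The 8 comparisons share the HEK28 libraries and are not independent of each other.

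**Figure D4:**
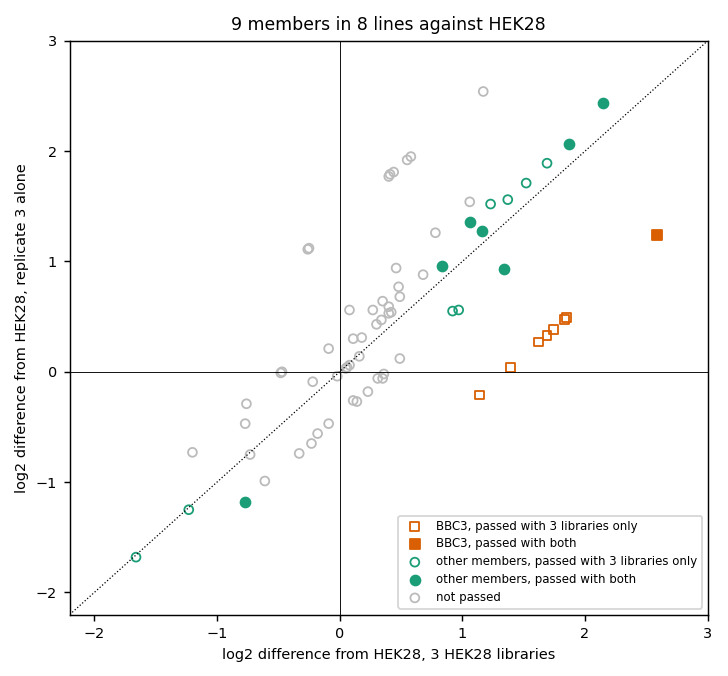
Log2 difference from HEK28 of the 9 tested members in the 8 lines, with 3 HEK28 libraries (x axis) and with HEK28 replicate 3 alone (y axis). Squares are BBC3, filled symbols passed both ways, open coloured symbols passed only with 3 libraries, grey ones did not pass with 3 libraries, and the dotted line marks equal values; BBC3 lies far under the line, with 1 of its 8 points, the MCFD2 line at 2.59 and 1.24, filled.

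HEK28 and the parental line differed in both directions. In HEK28 3 of 9 members were higher (BAX, SESN1 and FDXR; 16.9% of all genes were higher) and 3 lower (CDKN1A, BBC3 and ZMAT3; 15.2%). The knockout lines as a whole gave 4 higher (BAX, SESN1, RRM2B and MDM2; 24.3% of all genes) and 2 lower (CDKN1A and ZMAT3; 13.3%). Both comparisons share the parental libraries, and F8 was at 8.01 to 9.93 in the HEK28-derived libraries and at -0.73 to 0.76 in the parental ones.

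SESN1 was higher in both. The parental levels were 2.51, 1.54 and 2.83 (4, 4 and 19 reads), below the 4.21, 3.80 and 4.57 of HEK28 and below all 24 knockout libraries, the lowest of which was 3.49. The differences were 1.90 ± 0.30 for HEK28 (adjusted p = 3e-05) and 2.06 ± 0.22 for the knockouts (adjusted p = 1.11e-07). CDKN1A went the other way, 2.55-fold lower in HEK28 (-1.35 ± 0.29, adjusted p = 0.000811) and 1.70-fold lower in the knockouts (-0.77 ± 0.21, adjusted p = 0.00658), where the CALR line was above all 3 parental libraries. Without parental replicate 3 the second was -0.55 (adjusted p = 0.0983). With HEK28 replicate 3 alone the HEK28 differences were 2.28 for SESN1 (adjusted p = 0.000345) and -1.64 for CDKN1A (adjusted p = 0.00451).

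ZMAT3 was lower in HEK28 by 0.88 ± 0.21 on the log2 scale (adjusted p = 0.00247, and 0.0115 with replicate 3 alone) and in the knockouts by 0.45 ± 0.16 (adjusted p = 0.0269), the latter not without parental replicate 2 (0.103) or 3 (0.176). RRM2B was higher in the knockouts (1.27 ± 0.30, adjusted p = 0.00161), from parental levels of 2.45, 4.53 and 3.81. Without parental replicate 1 that difference was 0.70 (adjusted p = 0.0784). MDM2 was higher in the knockouts by 0.43 ± 0.13 (adjusted p = 0.0126), but by 0.19 after quantile normalisation (adjusted p = 0.260), and the call was also lost with voom (0.0585) and without parental replicate 1 (0.0650) or 2 (0.143).

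BAX had 0, 1 and 1 reads in the parental libraries. The ratio of HEK28 to parental reads per library size was 9.87, with an exact 95% counting interval of 2.27 to 89.5 (14 against 2 reads), and that of the knockouts was 11.1 (3.05 to 91.6). On the log2 scale the differences were 2.17 ± 0.64 (adjusted p = 0.0112) and 2.55 ± 0.48 (adjusted p = 0.000179). The first was lost without HEK28 replicate 2 (1.61, adjusted p = 0.0811), without replicates 1 and 2 (0.80, adjusted p = 0.535) and with voom (0.107). The BBC3 fall in HEK28 (-1.59 ± 0.33, adjusted p = 0.000710) was -0.24 with replicate 3 alone (adjusted p = 0.542). FDXR in HEK28 (0.96 ± 0.35, adjusted p = 0.0365) was not called without any 1 HEK28 replicate (0.0513 to 0.0932), with replicate 3 alone (0.98, adjusted p = 0.167), or without parental replicate 2 (0.169) or 3 (0.140).

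**Figure D5:**
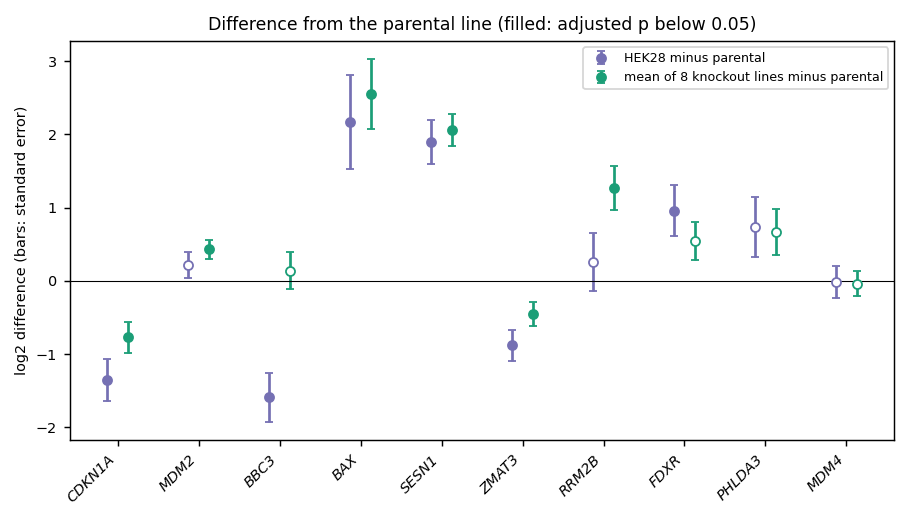
Log2 difference from the parental line (y axis, bars are standard errors) of the 9 tested members and MDM4 (x axis), for HEK28 (purple) and for the mean of the 8 knockout lines (green). Filled points passed at an adjusted p below 0.05; SESN1 and BAX lie above 0 and CDKN1A and ZMAT3 below 0 in both.

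MDM4 did not pass in HEK28 against the parental line (-0.01 ± 0.22, adjusted p = 0.978) or in the knockouts (-0.04 ± 0.17, adjusted p = 0.871).

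The wider target list was split in HEK28 as well, with 10 of 41 higher and 8 lower than in the parental line, where 16.9% of all genes were higher and 15.2% lower. With HEK28 replicate 3 alone 9 were higher and 5 lower, and voom called 6 in each direction. PMAIP1 (-2.60 ± 0.23, adjusted p = 1.19e-08) and ATF3 (-2.82 ± 0.31, adjusted p = 2.76e-07) were lower and RPS27L (2.27 ± 0.26, adjusted p = 5.91e-07) was higher. With replicate 3 alone PMAIP1 was at -1.92 (adjusted p = 9.92e-06), ATF3 at -2.76 (adjusted p = 0.000124) and RPS27L at 1.26 (adjusted p = 0.000424). Of the 24 cell cycle genes on the p21 list 13 were higher and 2 lower, and with replicate 3 alone 11 were higher and 0 lower. CCNB1 (1.96 ± 0.21, adjusted p = 1.96e-07), AURKA (1.34 ± 0.18, adjusted p = 3.41e-06) and BUB1 (2.29 ± 0.31, adjusted p = 4.04e-06) had the smallest adjusted p. With replicate 3 alone they stood at 1.75, 1.34 and 2.24. Shares of all genes for voom, or with replicate 3 alone, are not given here.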

How the data were processed

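RNA from 30 untreated cultures at about 70% confluency went into 3' libraries, per the labels' protocols. Reads were handled with cutadapt, FastQC, Bowtie and TopHat2 against hg38, per the submitters' processing notes, which give no versions. Which counter, gene annotation or scaling was used is not given in the sources used here. The authors deposited 1 table of log2 values, each equal to log2 of reads plus 0.5 divided by a factor of the gene and a size of the library. Whole reads were recovered for 16919 of 16975 genes (99.67%) with Python 3.11.15. Of the 5254 smallest gene factors, 100% were whole numbers within 0.1. The unit of the factors was chosen to make them whole, so this share is a description. The recovery and the tests were checked on simulated data. With 2-fold changes simulated in the CALR line, 31.6% were found against HEK28 and 59.8% against the other 7 lines. A test that did not pass therefore does not show that a gene was unchanged. The simulation of the tests used 1 common spread for all genes and no deviant HEK28 library.

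The deposited log2 values were tested in R 4.3.3 by limma 3.58.1 (mean-variance trend, robust moderation), all 30 samples in 1 model with 1 coefficient per group. The 11191 genes with at least 10 reads at the median library size in 3 libraries, and at least 15 in all, were tested. The p-values are two-sided and adjusted by Benjamini-Hochberg over all tested genes within each comparison, with a threshold of 0.05. Comparisons were each knockout against HEK28 and against the mean of the other 7 knockouts, HEK28 and the knockouts against the parental line, and an F test over the knockouts. Alternatives were voom on recovered reads, quantile normalisation, an offset of 2 reads, no filter, a replicate block, fewer samples, leaving out replicates and removing the gene factor, the last chosen after seeing the data.

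Between 2 replicates of a group the chi-square per degree of freedom was 1.52 or more (genes with 20 reads or more), so no library was treated as a duplicate. Positions are from GENCODE 29 (GRCh38), the build of hg38. Named genes are the members, MDM4, the 3 with the smallest adjusted p of each further list in a comparison described (fewer where fewer passed), and the 5 most like the members with at least 100 reads in the knockouts. Members and lists were chosen with earlier results of these data known. One further gene of the rule and of a list is not reported here.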

Additional observations from a re-analysis of the deposited data

How the results depend on the processing

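Numbered replicates did not pair the samples. The median correlation of deviations between same-numbered libraries was -0.01 (range -0.247 to 0.386), and 9 of 30 libraries correlated best with their own number. With a replicate block the member calls were 23 against HEK28 (23 without it), 13 against the other 7 knockouts (15), 6 and 6 against the parental line (6 and 6) and 7 in the F test (7). The 23 calls against HEK28 became 8 without HEK28 replicates 1 and 2, and 0 when only the 6 samples of a comparison were fitted, where 22 of 72 tests had an unadjusted p under 0.05. The 6 calls of HEK28 against the parental line likewise became 0 with those 6 samples, with 5 of 9 at an unadjusted p under 0.05. That fit has 4 residual degrees of freedom. The 15 calls against the other 7 knockouts became 25 with voom, 22 with the 24 knockout libraries alone and 10 with no filter. Leaving out 1 library gave 16 to 26 calls against HEK28, 11 to 15 against the other 7 knockouts, 4 to 6 for HEK28 and 4 to 7 for the knockouts against the parental line, and 6 to 7 in the F test. Of 616 recomputed values of 50 single-gene calls, 480 kept direction and call, 135 lost the call and 1 changed sign: BBC3 in the GABARAP line against HEK28, at -0.21 without HEK28 replicates 1 and 2 (adjusted p = 0.75). Quantile normalisation moved the median of all genes by over 0.1 only in the GABARAPL2 line against HEK28 (-0.13). Depth limits TP53I3, BAX, RRM2B and FDXR most, with under 10 reads in 25, 13, 7 and 5 of 30 libraries. With voom the F test passed for 29 of the 41 wider targets (16 without it) and for 18 of the 24 cell cycle genes (9). Without voom 13.4% of all tested genes passed. The share with voom is not given here, so the voom counts cannot be set against it.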
